A study of Homo sapiens with 8 samples.

Results

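The genes described here are 10 mucins, MUC1, MUC2, MUC4, MUC5AC, MUC5B, MUC13, MUC15, MUC16, MUC20 and MUC21, in naive H3122 cells and in 3 lines derived from them under an inhibitor of the kinase ALK. They were chosen by name, as the rows of the deposited table whose Ensembl gene identifier carries one of these symbols in GENCODE 44. All 10 were in the table, out of 43869 genes, and 165 of its 126470 H3K27ac peaks lay at most 20 kb from one of them. H3122 is an established human lung adenocarcinoma line that carries the EML4-ALK fusion, and all 4 lines stem from one parental culture. The study found the fusion gene amplified in most erCriz cells and in a fraction of erAlec cells. In erLor cells it found no amplification, and a higher proportion without a detectable fusion gene than in naive H3122. Its arrays of resistant lines also found recurrent chromosomal amplifications, among others on chromosome 3, where MUC4, MUC13 and MUC20 lie. The part of copy number in the mucin values was not tested. The resistant lines were erCriz0, selected in 0.5 µM crizotinib, erAlec0, selected in 2 µM alectinib, and erLor0, selected in 2 µM lorlatinib. The labels give RPMI medium with serum and DMSO vehicle for the cultures. The study raised the doses stepwise over time, and RNA was taken after the drug had been withdrawn from the cells. For the H3K27ac libraries its methods mention no such withdrawal. The study asked how far the resistant lines differ from naive cells and from each other in gene expression and in histone acetylation.

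Mucins are glycoproteins with long repeats of serine and threonine that carry dense O-linked sugar chains. MUC2, MUC5AC and MUC5B are secreted and polymerise into the gel of mucus, and their genes lie side by side on chromosome 11. MUC1, MUC4, MUC13, MUC15, MUC16, MUC20 and MUC21 are membrane mucins that line the apical cell surface, and several of them interact with growth factor receptors. In the airway MUC5AC is a product of surface goblet cells and MUC5B of submucosal glands and secretory cells, whereas MUC2 and MUC13 are best known from the gut. H3K27ac, acetylation of lysine 27 on histone H3, marks active promoters and enhancers.

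The promoters of 3 members are shown because they frame the results that follow: MUC13, whose RefSeq start lay under the peak with the largest rise among the 165, MUC1, whose RNA rose the most while the peak at its start moved little, and MUC2, whose RNA was higher where its peaks were lower. Each sequence is the 250 bases before the RefSeq start (build GRCh38.p14), written 5′ to 3′ on the gene's own strand, with motif matches in capitals. They lie at chr3:124934752-124935001 (minus strand), chr1:155192916-155193165 (minus strand) and chr11:1074624-1074873 (plus strand).
MUC13: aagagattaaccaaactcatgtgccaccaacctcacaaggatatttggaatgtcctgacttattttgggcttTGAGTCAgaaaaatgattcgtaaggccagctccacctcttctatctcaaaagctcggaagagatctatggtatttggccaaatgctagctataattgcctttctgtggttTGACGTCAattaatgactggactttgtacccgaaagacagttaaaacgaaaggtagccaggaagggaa
MUC1: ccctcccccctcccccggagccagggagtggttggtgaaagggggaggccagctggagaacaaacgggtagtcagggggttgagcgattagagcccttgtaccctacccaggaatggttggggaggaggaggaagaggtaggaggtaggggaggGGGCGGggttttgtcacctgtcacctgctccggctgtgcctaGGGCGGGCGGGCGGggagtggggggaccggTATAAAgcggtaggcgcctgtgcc
MUC2: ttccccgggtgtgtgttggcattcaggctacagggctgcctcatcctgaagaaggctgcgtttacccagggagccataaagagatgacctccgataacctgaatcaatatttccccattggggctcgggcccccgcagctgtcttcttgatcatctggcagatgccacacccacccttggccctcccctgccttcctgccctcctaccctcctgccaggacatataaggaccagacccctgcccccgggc

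Promoter motifs were searched on both strands. They were the TATA box TATAAA, the GC box GGGCGG, the AP-1 site TGACTCA, the forkhead site TGTTTAC, the cAMP response element TGACGTCA and the ETS core CCGGAA. The MUC13 window held an AP-1 match on the reverse strand at -178 and a cAMP response element at -68, counting back from the base before the start. Of 35116 RefSeq promoters cut to the same length, 4.20% held the AP-1 letters and 1.65% the cAMP response element. The MUC1 window held a TATA box at -24 (10.7% of promoters) and 4 GC boxes (42.6% of promoters), of which 3 overlapped each other. The MUC2 window held none of these motifs, of which the forkhead letters were in 2.98% and the ETS letters in 14.5% of promoters. The window of MUC13 was 41.6% G and C, that of MUC2 59.6% and that of MUC1 66%, against a median of 58% over all promoters. RefSeq promoters were matched for 5 members, the others being MUC4 and MUC16. MUC5AC, MUC5B, MUC15, MUC20 and MUC21 had no entry. These matches describe letters and were not tested for binding.

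Each line had 1 RNA library and 1 H3K27ac library, so no difference here has a replicate error, and no p-value or SD is given. Values are rlog values on a log2 scale, in which the differences of features with few reads are drawn toward 0, and the read depth behind them is unknown. A change is the difference of a line from naive H3122, and it was counted as up once it reached 1 and as down once it reached -1. All 3 changes of a gene use the same naive library. A gene was said to reach the read minimum if its highest value was at least 4.64, the log2 of 25 reads, and 12701 genes did. Median RNA over these genes ran from 8.09 to 8.14 across the libraries. All 10 epithelial markers reached the minimum. Of 11 markers of blood, endothelial, fibroblast, ciliated and neuroendocrine cells with a value, only the collagen gene COL1A1 did, at 9.49 to 10.08 RNA in the 4 lines, while the leukocyte gene PTPRC was listed at 0 in all libraries. The summed level of the 11 ran from 9.58 in naive cells to 10.14 in erLor0 on the log2 scale, of which COL1A1 made up nearly all. Their part in the mucin values was not tested. In bulk libraries fewer cells that make a transcript and less RNA per cell cannot be told apart.

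All mucins but MUC21 reached the read minimum. That gene had RNA of -0.95 in naive cells and between -0.94 and -0.91 in the resistant lines. MUC15 passed the minimum through erAlec0 alone, and MUC13 fell under it in erLor0. Per kb of annotated exon, mean RNA over the 4 lines was highest for MUC5B at 9.91 (log2), followed by MUC2 at 9.44, MUC5AC at 9.05, MUC1 at 8.84 and MUC4 at 8.67. These neighbours overlapped in their values across the lines, although MUC5B stood above MUC2 and MUC2 above MUC5AC in all 4 lines. MUC20 followed at 6.76, below the lowest value of MUC4, and then MUC16 at 5.10, MUC13 at 3.65 and MUC15 at 2.23. The lengths come from GENCODE 44, in which MUC16 begins further upstream than in the deposited table. Mucin exons hold long repeats, and reads of such repeats can be assigned uncertainly.

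In erCriz0, 3 of the 10 mucins were up in RNA (MUC1, MUC13 and MUC16) and 0 were down. Over all 43869 genes 0.818% were up and 0.481% down, and over those that reach the read minimum 2.65% and 1.65%. In erAlec0, 3 were up (MUC1, MUC2 and MUC15; 2 under quantile normalization, without MUC2) and 0 down, against 0.720% and 0.609% of all genes and 2.46% and 2.07% of those that reach the minimum. In erLor0, 1 was up (MUC15) and 1 down (MUC13), against 0.321% and 0.219% of all genes and 1.10% and 0.740% of those that reach the minimum. The median change over the 10 mucins was 0.69 in erAlec0, 0.36 in erCriz0 and 0.29 in erLor0, where the median over genes that reach the minimum was between -0.02 and 0.00. RNA above that of naive cells was found for 9 of the 10 with alectinib selection, 9 with crizotinib selection and 7 with lorlatinib selection. These counts include MUC21, which stayed under the read minimum. It lay only 0.01, 0.03 and 0.04 above naive cells in erCriz0, erAlec0 and erLor0. Under quantile normalization MUC5AC, MUC15 and MUC21 in erCriz0 and MUC13 in erAlec0 were at or just below naive cells. The share of all genes above naive cells was not counted.

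**Figure D1:**
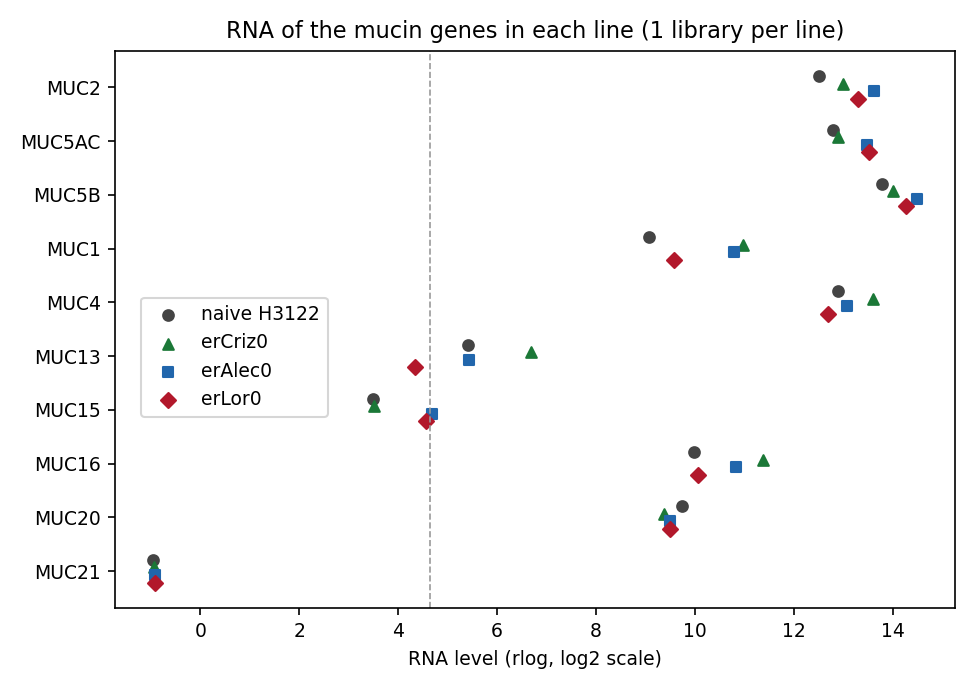
RNA of each mucin gene (x axis, rlog on a log2 scale) in naive H3122 (circle), erCriz0 (triangle), erAlec0 (square) and erLor0 (diamond), with 1 library per point and the read minimum of 4.64 as a dashed line. MUC1 separates naive and erLor0 (9.08 and 9.57) from erAlec0 and erCriz0 (10.79 and 10.96), and the secreted mucins MUC2, MUC5AC and MUC5B have their lowest value in naive cells, except that under quantile normalization MUC5AC is 0.04 lower in erCriz0.

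The 3 secreted, gel-forming mucins were among the most abundant transcripts of the set, and each had its lowest RNA in naive cells, except that under quantile normalization the erCriz0 change of MUC5AC was -0.04. MUC2, the main mucin of intestinal mucus, had RNA of 12.51 in naive H3122, 13.00 in erCriz0, 13.63 in erAlec0 and 13.29 in erLor0. These values lie 0.49, 1.12 and 0.78 above naive cells, of which the erAlec0 value, a 2.17-fold difference, passed the limit. Under quantile normalization that difference was 0.96, just under the limit. MUC5AC, the goblet cell mucin of the airway surface, was 12.80 in naive H3122, 12.89 in erCriz0, 13.47 in erAlec0 and 13.52 in erLor0. Its values fell in 2 levels, with naive and erCriz0 cells 0.09 apart and erAlec0 and erLor0 cells 0.05 apart. MUC5B, which mucociliary clearance requires, was 13.77 in naive H3122, 14.01 in erCriz0, 14.48 in erAlec0 and 14.27 in erLor0. The order of the lines was the same for MUC2 and MUC5B, with erAlec0 highest, and no change of MUC5AC or MUC5B reached 1. MUC5B has an antisense gene, MUC5B-AS1. The study checked its RNA reads for strand information with RseQC, but whether they were then counted by strand was not given in the sources used here. The median RNA change of other genes within 1 Mb of MUC2 that reach the minimum was -0.09, 0.18 and 0.13 in erCriz0, erAlec0 and erLor0. MUC6, the gastric gland mucin encoded next to MUC2, had RNA of 5.04 in naive H3122, 5.46 in erCriz0, 6.84 in erAlec0 and 5.54 in erLor0, a change of 1.80 in erAlec0.

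Most H3K27ac peaks paired with these genes were lower than in naive cells, 47 of 50 in erAlec0, 45 in erLor0 and 42 in erCriz0. The genes span 187 kb of chromosome 11 (1074875 to 1262172, hg38) and were paired with 50 peaks, 5 of them shared between members. In erAlec0 33 of the 50 peaks were down and 2 up, with a median change of -1.16. In erLor0 10 were down and 2 up, with a median of -0.50, and in erCriz0 7 were down and 0 up, with a median of -0.44. Over all peaks in erAlec0, 9.41% were down and 14.1% up. In erLor0 8.82% of all peaks were down and 7.45% up, and in erCriz0 5.94% and 7%, with median changes over all peaks of 0.00 in each line. Peaks of the surrounding region changed less. In erAlec0 the median of the 19 peaks of MUC2 was -1.31, that of the 15 of MUC5AC -1.05 and that of the 21 of MUC5B -1.07, where other peaks within 5 Mb had medians of -0.25, -0.27 and -0.27.

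Peaks over the starts of the genes were lower in erAlec0 as well. A peak of 25666 bp over the start of MUC2 (chromosome 11, 1050860 to 1076525), whose sequence before the start is shown above, was 12.70 in naive H3122, 12.75 in erCriz0, 11.51 in erAlec0 and 12.23 in erLor0. This peak was down in erAlec0 by -1.19 while MUC2 RNA was up by 1.12. The peak over the start of MUC5AC (1148404 to 1158410) was 10.79 in naive H3122, 10.99 in erCriz0, 8.92 in erAlec0 and 9.99 in erLor0. At -1.86 its erAlec0 change was larger in size than that at MUC2, and MUC5AC RNA was 0.67 higher in that line. The peak over the start of MUC5B (1216557 to 1224488) was 11.34, 11.61, 10.57 and 11.10 in the same order of lines, with an erAlec0 change of -0.77 that did not pass the limit. All 3 start peaks were slightly above naive cells in erCriz0. The largest falls within 20 kb were also found in erAlec0, with -1.62 at an exonic peak of MUC2 (1081489 to 1082671), -1.91 at an intergenic peak upstream of MUC5AC (1147308 to 1147971) and -1.71 at an intergenic peak upstream of MUC5B (1201907 to 1206252). Of the 6348 peaks of at least 5000 bp in the table, 12.3% were down in that line, and the part of peak length was not tested.

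The downstream edge of the cluster departed from the rest. A peak in the TOLLIP gene, a regulator of Toll-like receptor signalling that lies beyond the end of MUC5B, had values of 7.13 in naive H3122, 7.09 in erCriz0, 8.68 in erAlec0 and 8.71 in erLor0 (1274088 to 1278711). It was up by 1.55 and 1.57 in the latter lines, 11916 bp past the end of MUC5B. TOLLIP RNA was 8.02 in naive H3122, 7.70 in erCriz0, 8.19 in erAlec0 and 7.93 in erLor0, so it did not pass the limit in any line.

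**Figure D2:**
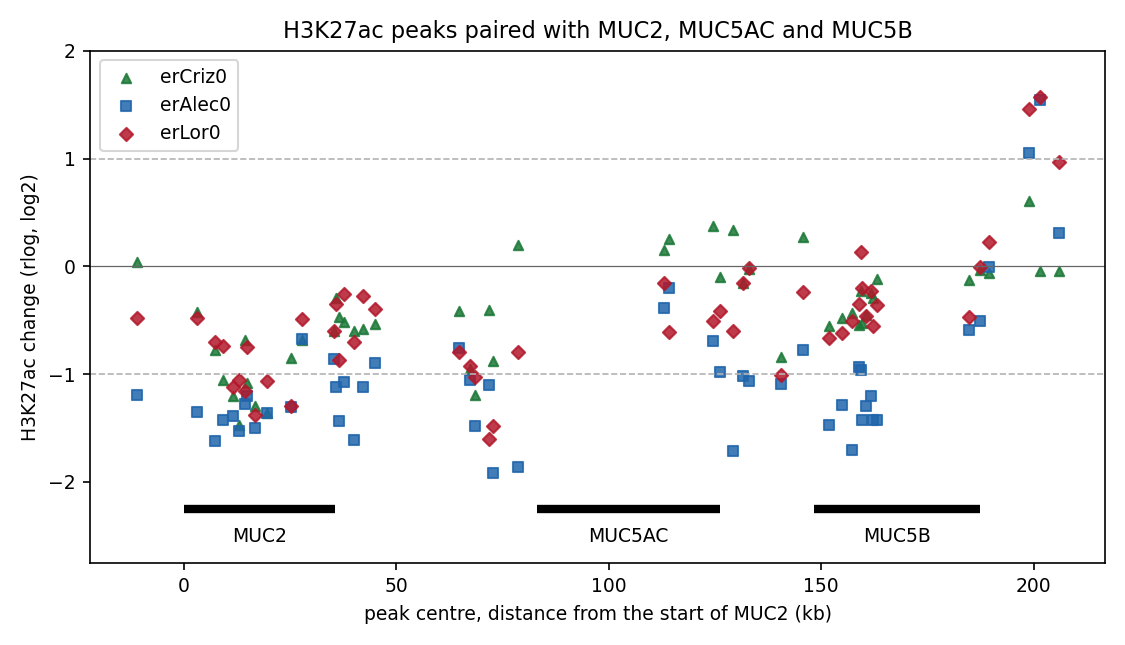
Change of each of the 50 H3K27ac peaks paired with MUC2, MUC5AC or MUC5B (y axis, log2) against the distance of its centre from the start of MUC2 (x axis, kb) in erCriz0 (triangles), erAlec0 (squares) and erLor0 (diamonds). Black bars are the genes, dashed lines the limits of 1 and -1. Of the erAlec0 points 47 of 50 lie below 0, and the points above 1 sit past the end of MUC5B.

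MUC1, the membrane mucin whose shed part is the serum marker CA 15-3, showed the largest RNA rise of the set. Its RNA was 9.08 in naive H3122, 10.96 in erCriz0, 10.79 in erAlec0 and 9.57 in erLor0. The changes of 1.88 and 1.71 correspond to 3.69-fold and 3.28-fold higher levels in erCriz0 and erAlec0, and the erLor0 change of 0.50 did not pass the limit. The acetylation at its start did not move with it. The peak over the start of MUC1 (chromosome 1, 155191875 to 155195180) was 9.58 in naive H3122, 9.92 in erCriz0, 9.63 in erAlec0 and 9.90 in erLor0. The largest of these changes was 0.34. Of the 21 peaks paired with MUC1, 0 passed the limit in erCriz0 or erAlec0 and 1 was down in erLor0. Their median change was -0.52, -0.28 and -0.21 in erCriz0, erAlec0 and erLor0, where other peaks within 5 Mb had -0.29, 0.01 and -0.11. All of these peaks are shared with neighbouring genes, the start peak with 9 others. Other genes within 1 Mb of MUC1 had median RNA changes between -0.07 and 0.27.

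MUC4, a membrane mucin that binds the receptor ERBB2, and MUC20, a membrane mucin that associates with the receptor MET, are neighbours on chromosome 3. MUC4 RNA was 12.89 in naive H3122, 13.60 in erCriz0, 13.07 in erAlec0 and 12.69 in erLor0. MUC20 RNA was 9.74 in naive H3122, 9.37 in erCriz0, 9.50 in erAlec0 and 9.50 in erLor0. Neither gene passed the limit, and MUC20 was the member whose highest RNA was in naive cells. MUC20 overlaps the transcript MUC20-OT1 on the same strand, so part of their reads could be shared. Together they were paired with 54 peaks, 17 of them shared. In erAlec0 53 of these were lower than in naive cells, with a median of -0.74 and 6 down, and in erLor0 46 were lower, with a median of -0.55, 6 down and 1 up. In erCriz0 the median was 0.04, with 1 up and 4 down. The peak over the MUC4 start (195797991 to 195815927) was 12.10 in naive H3122, 12.54 in erCriz0, 11.05 in erAlec0 and 11.76 in erLor0, down by -1.05 in erAlec0 although MUC4 RNA was 0.18 higher there. The peak over the MUC20 start (195714337 to 195725193) stayed within 0.24 of its naive value of 11.81 in the 3 lines. A peak in the 3' part of MUC4 (195749984 to 195755215) had values of 7.94, 8.94, 7.82 and 9.09 in naive H3122, erCriz0, erAlec0 and erLor0, and was up by 1.15 in erLor0.

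MUC13, a membrane mucin of the gut epithelium that is also made by several carcinomas, was highest in erCriz0 in both RNA and acetylation. Its RNA was 5.40 in naive H3122, 6.69 in erCriz0, 5.42 in erAlec0 and 4.33 in erLor0. Expression was up by 1.29 in erCriz0 and down by -1.07 in erLor0, and it was the member with the widest span over the 4 lines, 2.36. The RefSeq start of the gene lies 19068 bp inside the model of the deposited table and under a peak (chromosome 3, 124933531 to 124936054) that includes the promoter sequence shown above. This peak was 5.94 in naive H3122, 8.14 in erCriz0, 5.04 in erAlec0 and 5.06 in erLor0. Its rise of 2.20 in erCriz0 was the largest among the 165 peaks, and it is paired with MUC13 alone. No peak lay over the upstream start that the table gives. In erCriz0 4 of the 12 MUC13 peaks were up and 0 down, with a median of 0.92 where other peaks within 5 Mb had 0.20. In erAlec0 and erLor0 1 of the 12 was down in each, with medians of -0.53 and -0.30 against 0.31 and 0.22 in the region.

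The strongest peak paired with MUC13 lies over the start of HEG1, which encodes a mucin-like membrane protein (124969068 to 124977617). This peak is 15249 bp upstream of the table's model of MUC13 and further still from the RefSeq start. It was 8.77 in naive H3122, 10.01 in erCriz0, 7.53 in erAlec0 and 7.57 in erLor0, hence up by 1.24 in erCriz0 and down by -1.24 and -1.21 in erAlec0 and erLor0. HEG1 RNA was 6.00 in naive H3122, 6.84 in erCriz0, 6.18 in erAlec0 and 6.45 in erLor0, which in erAlec0 and erLor0 lay above naive cells, unlike the peak.

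MUC15, a membrane mucin encoded within the gene ANO3 on the opposite strand, was low in all lines. Its RNA was 3.50 in naive H3122, 3.52 in erCriz0, 4.69 in erAlec0 and 4.57 in erLor0. The changes of 1.19 and 1.07 in erAlec0 and erLor0 passed the limit at a level close to the read minimum, and rlog draws such differences toward 0. The peak over its start (chromosome 11, 26571750 to 26574511) was 6.05 in naive H3122, 5.42 in erCriz0, 8.00 in erAlec0 and 7.45 in erLor0. The acetylation stood 1.95 and 1.40 above naive cells in the lines with more MUC15 RNA, and its erCriz0 change was -0.63. All 6 of its peaks were higher in erAlec0 and in erLor0, with medians of 0.72 and 0.45, and 5 of 6 were lower in erCriz0, with a median of -0.65. Peaks within 5 Mb had medians of 0.04, -0.12 and 0.26 in erAlec0, erLor0 and erCriz0. The peaks of MUC15 are paired with ANO3 too.

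**Figure D3:**
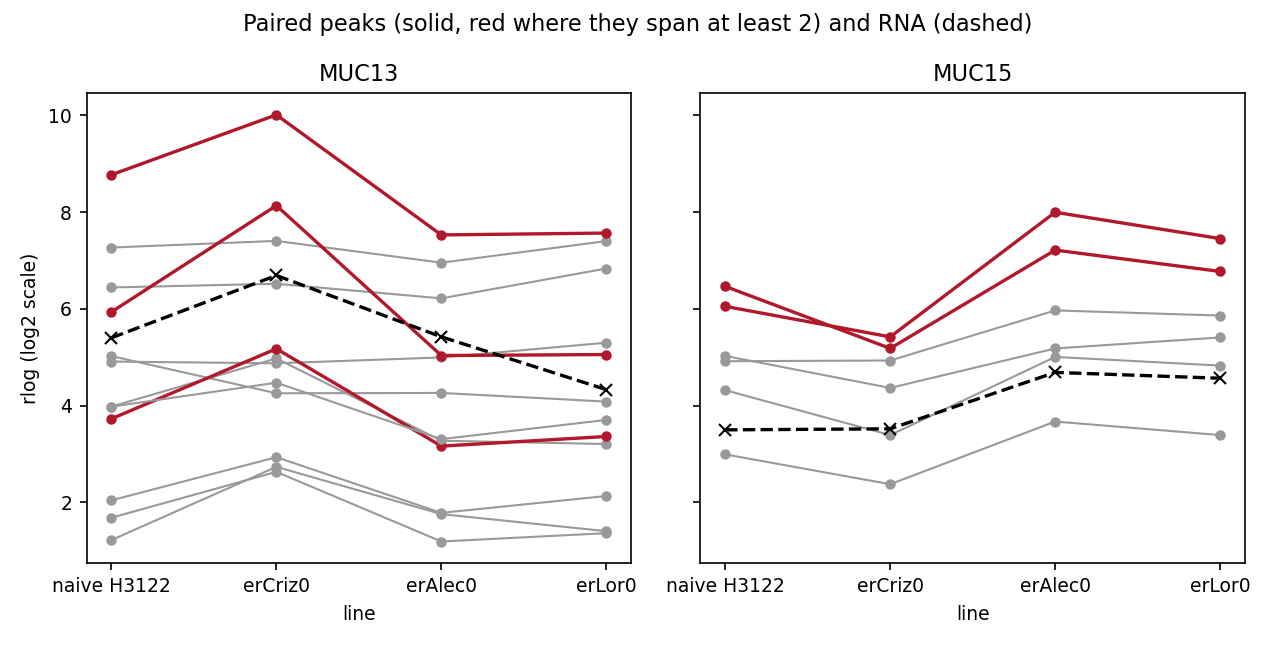
Values (y axis, rlog on a log2 scale) of the 12 peaks paired with MUC13 and the 6 paired with MUC15 in the 4 lines (x axis, 1 library each), joined by lines to follow a peak. RNA is dashed, and peaks that span at least 2 are red. The peak at the RefSeq start of MUC13 goes from 5.94 to 8.14 in erCriz0 and the peak at the MUC15 start from 6.05 to 8.00 in erAlec0.

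MUC16, the membrane mucin that carries the ovarian cancer marker CA125, had RNA of 9.98 in naive H3122, 11.38 in erCriz0, 10.84 in erAlec0 and 10.05 in erLor0. Expression was up by 1.41 in erCriz0, a 2.65-fold difference, stood 0.86 higher in erAlec0 and 0.08 higher in erLor0. The order of the lines was the same as for MUC1, with naive lowest and erCriz0 highest. A peak in an exon of MUC16 (chromosome 19, 8934637 to 8936564), paired with this gene alone, was 5.12 in naive H3122, 6.57 in erCriz0, 4.69 in erAlec0 and 4.88 in erLor0. This peak was up by 1.45 in erCriz0, and the other peak inside the table's model of MUC16 was up there as well, by 1.08. Peaks upstream of that model, which lie in an intron of MUC16 in GENCODE 44, went the other way in erCriz0. The largest fall among them was -0.99 at 8992836 to 8993273. The median over the 8 paired peaks was thus -0.50, whereas it was 1.26 over the peaks within 5 kb of the table's model, which are the 2 inside it. The deposited model of MUC16 ends at 8981342, whereas GENCODE 44 places the start at 9010390, and the peak over that start (9008105 to 9012579) is not paired with MUC16 in the table. It was 8.42 in naive H3122, 8.91 in erCriz0, 8.19 in erAlec0 and 8.72 in erLor0. Its changes of 0.50, -0.22 and 0.30 were smaller than the limit. RefSeq also places a start of MUC16 further upstream, at 9065751, with no peak over it. A stronger peak between these starts (9016533 to 9038022), also not paired with MUC16, was 11.19 in naive H3122, 11.27 in erCriz0, 11.05 in erAlec0 and 11.64 in erLor0.

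MUC21, a membrane mucin known from lung and oesophageal epithelium, stayed under the read minimum, yet peaks lay near it. None of its 14 paired peaks was inside the gene or over its start. All 14 were higher in erAlec0, with a median of 0.66 and 1 up, and 12 of 14 in erLor0, with a median of 0.47 and 0 up. In erCriz0 11 of 14 were lower, with a median of -0.34. The largest rise was at 30991850 to 30992393 on chromosome 6, 1947 bp past the end of the gene, which had values of 3.39 in naive H3122, 3.06 in erCriz0, 4.58 in erAlec0 and 4.25 in erLor0. Other peaks within 5 Mb had medians of 0.14, 0.06 and -0.26 in erAlec0, erLor0 and erCriz0.

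Over all 165 mucin peaks erAlec0 had 40 down and 5 up, erLor0 18 down and 4 up, and erCriz0 12 down and 7 up. The share down was 24.2% for erAlec0, 10.9% for erLor0 and 7.27% for erCriz0. Over all peaks of the table the shares given above were 9.41%, 8.82% and 5.94%. Only the erAlec0 share stood well above its background, and it came mostly from 1 stretch. Of its 40 down peaks 33 were paired with MUC2, MUC5AC or MUC5B, and 6 with MUC4 or MUC20. The share up was 3.03%, 2.42% and 4.24% in the same order, below the 14.1%, 7.45% and 7% of all peaks. The median over the 165 was -0.23, -0.68 and -0.38 in erCriz0, erAlec0 and erLor0. Peaks are not independent of each other, since 22 belong to 2 members and 50 and 54 sit in the stretches of chromosomes 11 and 3 described above. RNA and the median paired peak had the same sign for 3 of the 10 mucins in erCriz0 (MUC4, MUC13 and MUC20), for 3 in erAlec0 (MUC15, MUC20 and MUC21) and for 5 in erLor0 (MUC4, MUC13, MUC15, MUC20 and MUC21), and the RNA signs of MUC5AC and MUC15 in erCriz0 and of MUC13 in erAlec0 turned under quantile normalization. Among genes that reach the read minimum, which MUC21 does not, the same sign was found in 54.00%, 49.96% and 51.16% in the same order of lines. MUC2 in erAlec0 was 1 of 19 genes, of 312 up in RNA in that line, whose median paired peak was down, a count made without quantile normalization.

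**Figure D4:**
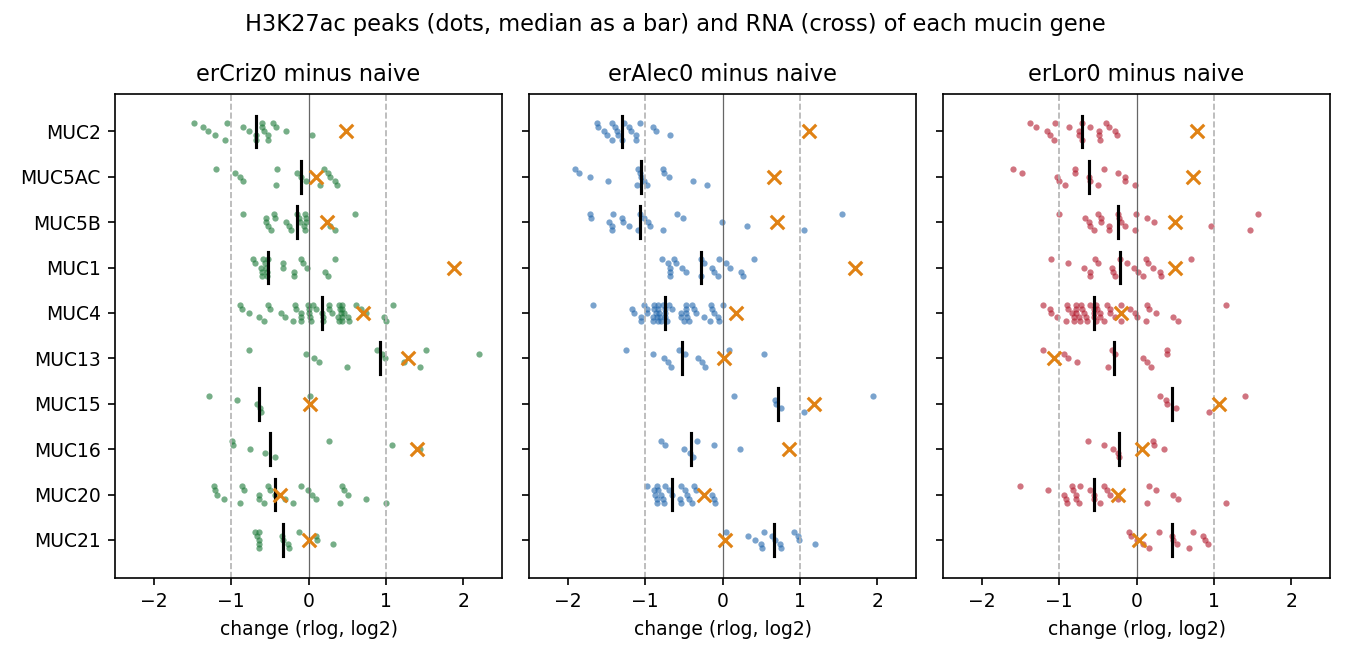
Change from naive H3122 (x axis, rlog on a log2 scale) of every H3K27ac peak paired with each mucin gene (dots, median as a black bar) and of its RNA (orange cross) in erCriz0, erAlec0 and erLor0, with 1 library per line. Dashed lines mark 1 and -1. For MUC2, MUC5AC and MUC5B in erAlec0 the medians of -1.31, -1.05 and -1.07 lie opposite the RNA changes of 1.12, 0.67 and 0.71.

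Between the resistant lines the widest RNA differences were at MUC1, MUC13, MUC15 and MUC16. MUC1 RNA was 1.39 higher in erCriz0 than in erLor0 and 0.17 higher than in erAlec0. MUC16 RNA was 1.33 higher in erCriz0 than in erLor0 and 0.55 higher than in erAlec0. MUC13 RNA was 2.36 and 1.27 higher in erCriz0 than in erLor0 and erAlec0, and the same differences for MUC15 were -1.05 and -1.17. MUC2, MUC5AC and MUC5B differed by at most 0.63 between any pair of resistant lines. The lines selected in alectinib and lorlatinib differed most at MUC1 and MUC13, where erLor0 minus erAlec0 was -1.21 and -1.09. For MUC5AC, MUC15 and MUC20 the same pair differed by 0.12 or less.

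Genes that work with mucins were counted against the shares given above for genes that reach the minimum. Of 14 other mucin genes, MUC7 and MUC17 had no row, and 4 of the 12 with a value reached the read minimum. Of these 4, 1 was up in erAlec0 (MUC6) and 0 passed the limit in the other lines. Of 17 regulators of secretory cells that reach the minimum, of 24 listed, 1 was up in erCriz0 and 1 down in erLor0, with medians between 0.02 and 0.09. The first was HNF4G, a nuclear receptor of gut epithelium, at 7.15 in naive H3122, 8.21 in erCriz0, 7.21 in erAlec0 and 6.64 in erLor0. The second was ERN2, a stress sensor of mucous cells, at 6.79, 7.05, 6.82 and 5.78. SPDEF, a transcription factor that directs goblet cell differentiation, was 8.77 in naive H3122, 9.50 in erCriz0, 9.27 in erAlec0 and 9.39 in erLor0, below the limit in each.

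Among products of goblet and other secretory cells 7 of 20 reached the read minimum, and their medians were -0.43, -0.40 and -0.73 in erCriz0, erAlec0 and erLor0. RNA was above naive cells for 2, 3 and 3 of the 7 in the same order. AGR2, the highest of the 7, was 13.00 in naive H3122, 13.58 in erCriz0, 13.64 in erAlec0 and 13.17 in erLor0. The summed level of the 7 on the log2 scale was 13.45, 13.78, 13.92 and 13.49 in the same order of lines. Of these 7, 2 were down in each line (TFF3 and TFF1 in erCriz0, BPIFB1 and SCGB3A1 in erAlec0, BPIFB1 and TFF3 in erLor0), where 1.65%, 2.07% and 0.740% of genes that reach the minimum were down. SCGB3A1, AGR2 and, below, GALNT13 are named after their values were seen. Only the naive library, at 5.04, brought SCGB3A1 over the read minimum, and falls are counted from that library. Its RNA with crizotinib, alectinib and lorlatinib selection was 4.25, 3.95 and 4.31. The fall of SCGB3A1 is therefore weak evidence, which leaves BPIFB1 for erAlec0. The SCGB3A1 change with lorlatinib selection was also the median of -0.73. Genes behind the compared shares were chosen by the same minimum. ST6GALNAC1 was up in erAlec0 and erLor0, and 0 of the 7 were up in erCriz0. BPIFB1, a secreted protein of airway mucous cells, was 9.82 in naive H3122, 9.38 in erCriz0, 7.63 in erAlec0 and 7.12 in erLor0. BPIFB1 was down by -2.19 and -2.70 in erAlec0 and erLor0. TFF3, a trefoil peptide released together with mucins, was 8.76 in naive H3122, 6.86 in erCriz0, 8.36 in erAlec0 and 7.51 in erLor0. TFF1, of the same family, was 10.16, 8.87, 10.56 and 10.30. ST6GALNAC1, a sialyltransferase that caps mucin sugars, was 7.73 in naive H3122, 8.70 in erCriz0, 9.29 in erAlec0 and 9.13 in erLor0. Of 28 enzymes of mucin O-glycosylation that reach the minimum, of 35 listed, 2 were up in erCriz0 (FUT2 and GCNT2) and 0 down. In erAlec0 2 were down (GCNT1 and GALNT13), in erLor0 2 (GCNT1 and B3GNT6), and 0 were up in either. GALNT13 was 7.85 in naive H3122, 7.30 in erCriz0, 6.84 in erAlec0 and 7.28 in erLor0. FUT2, which makes the secretor sugars, was 6.02 in naive H3122, 7.56 in erCriz0, 6.13 in erAlec0 and 6.65 in erLor0. GCNT1, which branches the sugar chain, was 9.16, 8.97, 7.80 and 8.08, and B3GNT6, which makes a gut-type core, was 6.67, 6.09, 5.81 and 5.46 in the same order.

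For the 5 mucins past the limit in a line, the 3 genes with the most similar profile over the 4 lines were found among 12700 genes by Euclidean distance after centring each gene. The profiles closest to MUC2 were those of CCN1, at a distance of 0.04, PGGHG at 0.07 and MICAL2 at 0.10. For MUC1 they were NAMPTP1, NAMPT and GREM1, at 0.23, 0.25 and 0.28. MUC13 had DHRS9, ERAP2 and LCN2 at 0.27 to 0.28. MUC15 was nearest to CGNL1, ITPKA and SIPA1L2 at 0.08 to 0.12, and MUC16 to CCDC80, MAML2 and IFITM2 at 0.07 to 0.12. These distances rest on 4 libraries and describe only the pattern over the lines, since centring removes the level of a gene.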

How the data were processed

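H3K27ac ChIP-seq and RNA-seq of naive H3122, erCriz0, erAlec0 and erLor0 were used, each line having 1 library per assay. The other 4 of the 8 samples (erCriz1, erLor1, Lor 2w and the input) were not analysed here. In the 1 table deposited by the authors, rows are pairs of a peak and a gene up to 20 kb apart, holding log2-scale rlog values that they computed with DESeq2. RNA reads were mapped to hg38 by HISAT2 and gene counts taken by HTSeq-count. ChIP reads were mapped by BWA, and MACS2 peaks of 4 samples were merged, cleared of blacklisted regions and counted by featureCounts. Versions were not given in the sources used here. The table's correlations, p-values and means were not used.

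Gene symbols came from GENCODE 44, with 43669 of 43869 identifiers matched. Changes, counts and medians were computed with pandas 2.3.3 and numpy 2.4.6 (Python 3.11.15), after a check on simulated data. Genes were compared with those whose highest value was at least log2 of 25, and peaks with a minimum of log2 of 15 as an alternative. No test was run, because no line has replicates. All members are named, with the peaks over their start, of highest mean and of largest rise and fall, and at most 4 genes per other list by the largest change. A further peak over the GENCODE 44 start of MUC16 and the genes paired with named peaks were chosen after their values were seen. So were SCGB3A1, AGR2 and GALNT13. The members and lists were chosen with earlier results of these data known. Alternatives were other normalizations, limits, pairing distances and regions.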

Additional observations from a re-analysis of the deposited data

Results flagged for a closer look

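Effects of opposite direction, each past the limit of 1, were found in 2 places, both at MUC13. MUC13 RNA was 1.29 higher than in naive H3122 in erCriz0 and changed by -1.07 in erLor0. The peak over the start of HEG1 paired with MUC13 (chromosome 3, 124969068 to 124977617) changed by 1.24 in erCriz0 but by -1.24 in erAlec0 and by -1.21 in erLor0. The difference between lines was not tested, since each line has 1 library of each kind, and all changes use the same naive library.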

How the results depend on the processing

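No change past the limit of 1 reversed its sign, and neither quantile normalization nor the removal of the trend with peak level in 50 bins, the latter chosen after seeing the data, moved any value by 0.25 or a count by more than 1.5 times. Quantile normalization did take the erAlec0 RNA change of MUC2 from 1.12 to 0.96, which left 2 mucins up in that line. It also turned small RNA changes to the other side of 0, at MUC5AC (0.09 to -0.04) and MUC15 (0.02 to 0.00) in erCriz0 and at MUC13 (0.02 to -0.01) in erAlec0. The erCriz0 change of MUC21 went from 0.01 to 0. At a limit of log2 of 1.5, 6 mucins were up in RNA in erAlec0 and 3 in erLor0, and the mucin peaks split into 89 down and 15 up in erAlec0, 59 down and 12 up in erLor0, and 47 down and 16 up in erCriz0. At a limit of 2, 0 mucins were up or down in RNA in any line, and 1 peak was up in erCriz0 with 0 others up or down. With each library centred on its median over all peaks, 11 were up in erCriz0 and 7 in erLor0. With peaks within 5 kb, erCriz0 had 4 up and 6 down, erAlec0 2 up, and erLor0 2 up and 10 down. With peaks paired with exactly 1 gene, erCriz0 had 3 up and 7 down, erAlec0 0 up and 26 down, and erLor0 0 up with a median of -0.70. MUC1, MUC5B, MUC15, MUC20 and MUC21 have no such peak. The fewer peaks follow from these selections. Peak filters moved 15 of the medians of single members, by 0.25 or more, at MUC5AC, MUC13, MUC15, MUC16 and MUC21. In erCriz0 the MUC16 median of -0.50 became 1.26 within 5 kb, and that of MUC5AC went from -0.10 to 0.23 there and among peaks that reach log2 of 15. No paired analysis was possible because each line has 1 library. Depth is unknown, so it limits low genes such as MUC15 to a degree that cannot be stated.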
